A study of Rattus norvegicus with 13 samples.

Results

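The sites described here had less H3K4me2 in Myocd-LSD1 than in Myocd-LSD1NF rat aortic smooth muscle cells, and a FLAG peak of FLAG-tagged Myocd-LSD1 cells lay on them. A site was taken when its mean H3K4me2 concentration in the authors' deposited table was smaller in Myocd-LSD1 cells than in Myocd-LSD1NF cells. It also had to overlap a peak of the FLAG list by 1 bp or more. Of 5183 sites in that table, 2174 were lower, and 494 of these overlapped a FLAG peak. The table lists sites with an FDR of at most 0.05, and its p-values and FDRs imply about 36356 sites tested, of which 5.98% were called lower. FLAG peaks lay on 28.4% of all sites in the table and on 40.8% of all Myocd-LSD1NF H3K4me2 peaks. The lower sites without a FLAG peak numbered 1680, and the higher sites with and without one numbered 977 and 2032. Since the direction and the FLAG overlap chose these sites, both are given below as description, with no test.

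The study mapped H3K4me2, dimethylated lysine 4 of histone H3, by CUT&Tag, in which an antibody directs the Tn5 transposase to cut the DNA next to its epitope. H3K4me2 was mapped in cell lines labelled Myocd-LSD1, Myocd-LSD1NF and WT (the control), with 3 samples of each, and FLAG in cells labelled Myocd-LSD1 (FLAG-tagged), with 4 samples. All were Rattus norvegicus aortic smooth muscle cells grown in medium with serum. The labels do not spell out NF, and they do not say how the lines were made, whether a line is a single clone, or whether samples of a group were separate cultures. The files used here hold a single peak list per group and the means of each line in the DiffBind table, so values per sample cannot be shown, read depth is unknown, and peak lists carry no replicate error.

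The mark sits on promoters and enhancers that are in use or held ready, and LSD1, encoded by Kdm1a, takes methyl groups off this lysine. Myocardin, the product of Myocd, is a coactivator of serum response factor, which binds CArG boxes in the promoters of contractile genes such as Acta2. In differentiated smooth muscle, H3K4me2 lies on such genes, and it is known as a mark that goes with the identity of this cell type.

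The promoters of Acta2, Itga8 and Mkl2 are shown first, because they are the contractile and regulator genes at which a lower site with a FLAG peak lay on the transcription start site (TSS). The sequences are from RefSeq, build GRCr8, while all site positions are in rn6, so the 2 sets of coordinates cannot be set against each other. Each runs 5′ to 3′ from 250 bases before to 50 bases after the start, at chr1:241172454-241172753 for Acta2 and chr17:80410584-80410883 for Itga8, both on the minus strand, and at chr10:1623703-1624002 on the plus strand for Mkl2, which RefSeq names Mrtfb. Capitals mark CArG boxes with at most 1 of the 6 inner bases other than A or T.
Acta2: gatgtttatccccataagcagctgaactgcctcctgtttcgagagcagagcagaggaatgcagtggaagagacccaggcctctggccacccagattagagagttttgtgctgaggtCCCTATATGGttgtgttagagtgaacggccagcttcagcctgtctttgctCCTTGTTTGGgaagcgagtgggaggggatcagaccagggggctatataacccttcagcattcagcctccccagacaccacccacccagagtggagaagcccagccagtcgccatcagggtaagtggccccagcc
Itga8: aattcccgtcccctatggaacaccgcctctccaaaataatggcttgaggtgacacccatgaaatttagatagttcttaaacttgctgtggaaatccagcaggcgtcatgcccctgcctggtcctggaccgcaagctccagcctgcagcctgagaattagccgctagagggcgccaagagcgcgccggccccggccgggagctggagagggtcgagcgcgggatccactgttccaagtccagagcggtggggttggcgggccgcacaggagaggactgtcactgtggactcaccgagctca
Mkl2: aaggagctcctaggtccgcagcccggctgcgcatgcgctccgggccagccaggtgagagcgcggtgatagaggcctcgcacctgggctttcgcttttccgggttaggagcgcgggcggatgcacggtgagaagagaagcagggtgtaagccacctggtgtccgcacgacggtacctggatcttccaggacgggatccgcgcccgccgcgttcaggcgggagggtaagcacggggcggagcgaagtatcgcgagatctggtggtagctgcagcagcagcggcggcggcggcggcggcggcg
The Acta2 window held 2 such boxes, with first bases at -134 and -84 from the start, and 4 CG pairs at 56.0% G and C. The windows of Itga8 and Mkl2 held none of these boxes, with 18 and 37 CG pairs at 60.3% and 69.0% G and C. A peak of the 494 sites lay on the TSS of 53 genes, of which 36 were matched in the RefSeq table, 1 through a synonym, giving 42 promoter windows. A CArG box with at most 1 inner base off was present in 2 of these windows (4.76%), those of Acta2 and Myo7a, against 9.42% of all 33469 windows in the table. An exact box was present in 0 of them, against 1.64% of all windows, and the sequence CATTCC, on either strand, in 19.0%, against 14.2% of all windows. A CArG box reads alike on both strands, and the motifs were searched separately, so matches may overlap. The median number of CG pairs was 18.0 in these windows and 7.00 in all windows. These start-site promoters held more CG pairs at the median than the table as a whole. All windows include promoters with and without an H3K4me2 peak. No comparison was made with other promoters marked on the TSS, so the median is not shown to be particular to these sites. Some genes gave several windows, and neither share nor median was tested.

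Most contractile genes carried the mark at a promoter in each line. Among 39 contractile genes named in the lists, promoter H3K4me2 peaks were present at 34 in Myocd-LSD1, 35 in Myocd-LSD1NF and 35 in control cells. Other cell types were marked less widely, with 5, 4 and 6 of 14 endothelial genes, 4, 7 and 8 of 13 fibroblast genes, 3, 3 and 3 of 7 leukocyte genes, 2, 2 and 5 of 11 striated muscle genes and 12, 10 and 14 of 21 osteogenic and chondrogenic genes in the same order of lines. Housekeeping and cell cycle genes, which stand for no cell type, were marked at least as widely as contractile genes. In each line these were 18 of 18 housekeeping and 26 of 28 cell cycle genes, so promoter marking alone does not set contractile genes apart. The Myh11 promoter, of smooth muscle myosin heavy chain, had 0 peaks in Myocd-LSD1, 1 in Myocd-LSD1NF and 1 in control cells. Kdm1a, Tagln and Myh11 had no site in the table, so no difference is available for them.

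At the 494 sites the mark was lower, and at most of them it was still called as a peak in Myocd-LSD1 cells. In the authors' deposited table, the median mean log2 concentration, DiffBind's measure of normalised reads in a site, was 4.66 in Myocd-LSD1 cells (quartiles 3.47 and 5.76) and 6.06 in Myocd-LSD1NF cells (5.20 and 6.81). The difference, Myocd-LSD1 minus Myocd-LSD1NF, had a median of -1.34, quartiles of -1.86 and -0.98 and a range of -4.74 to -0.52 per the authors' deposited table. The difference reached a size of 1 at 73.5% of the 494 sites (exact Clopper-Pearson 95% interval 69.4 to 77.3, covering counting error only) and of 2 at 19.2% (15.8 to 23.0), by the authors' deposited table. Lower sites without a FLAG peak had larger differences and less signal. Their medians were 2.51 in Myocd-LSD1 against 5.01 in Myocd-LSD1NF cells with a difference of -2.40 per the authors' deposited table, and 63.8% (61.5 to 66.1) differed by 2 or more. The lowest concentration the column holds for Myocd-LSD1, -0.08, was reached at 3 of the 494 sites (0.607%) against 230 of the 1680 (13.7%) per the authors' deposited table. Both sets were chosen on this contrast, and the difference between them was not tested.

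**Figure D1:**
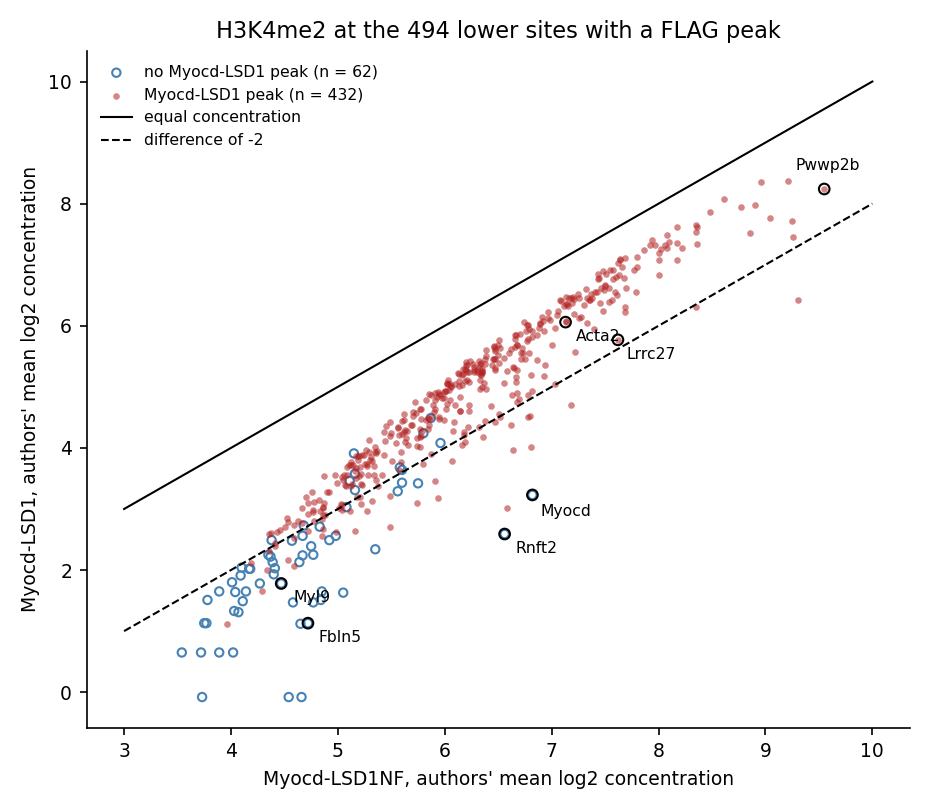
Mean log2 H3K4me2 concentration from the authors' deposited table at the 494 lower sites with a FLAG peak, in Myocd-LSD1 cells (vertical axis) and Myocd-LSD1NF cells (horizontal axis); each point is a site, open points are the 62 sites with no Myocd-LSD1 peak, and ringed points are named. All points lie below the line of equal concentration, as the rule requires, and the sites without a Myocd-LSD1 peak gather at low concentrations.

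Contractile genes carried such sites at 5 of the 39 genes of the list, Myl9, Lmod1, Ppp1r14a, Acta2 and Itga8, with a median difference of -1.17 per the authors' deposited table. Of all 21397 genes named in any list, 2.20% had a site among the 494. Genes differ in how many peaks they hold, and the counts were not adjusted for this. At Acta2, smooth muscle alpha actin, the site covered the TSS (chr1:252550333-252550820), and the authors' deposited table gave 6.06 in Myocd-LSD1 against 7.13 in Myocd-LSD1NF cells, a difference of -1.07 (FDR 0.00307). Its FLAG peak had a fold enrichment of 7.66 over background. This fold and all peak folds below are the authors' values and are used within a list only. Another Acta2 site, 421 bp from the TSS and also under a FLAG peak, was higher in Myocd-LSD1 cells, at 6.75 against 5.98 in Myocd-LSD1NF cells, a difference of 0.77 (FDR 0.0209) per the authors' deposited table. The Acta2 promoter held neighbouring sites that differed in opposite directions.

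The sites of the other contractile genes lay on the TSS, elsewhere in the promoter, in an intron or upstream. At Itga8, an integrin alpha subunit of smooth muscle, the site lay on the TSS (chr17:79675248-79676814), with 6.08 in Myocd-LSD1 against 7.13 in Myocd-LSD1NF cells per the authors' deposited table (difference -1.04, FDR 0.00127). Ppp1r14a, an inhibitor of myosin phosphatase, had a site 1880 bp from its TSS (chr1:87230465-87232233), at 6.83 in Myocd-LSD1 against 8.00 in Myocd-LSD1NF cells per the authors' deposited table (difference -1.17, FDR 2.60e-06). Lmod1, leiomodin, which nucleates actin filaments, had an intronic site (chr13:52169113-52170124) at 5.56 in Myocd-LSD1 against 6.79 in Myocd-LSD1NF cells per the authors' deposited table (difference -1.23, FDR 0.00765). Myl9, the regulatory light chain of smooth muscle myosin, differed most of the 5 genes, and its site was the weakest. It lay upstream, at -8044 bp from the TSS (chr3:152848877-152849529), with 1.78 in Myocd-LSD1 against 4.47 in Myocd-LSD1NF cells per the authors' deposited table (difference -2.68, FDR 0.00556), and no Myocd-LSD1 peak was called on it. Cnn1, calponin, had 2 lower sites at its promoter, at -3.25 and -3.18 per the authors' deposited table, and no FLAG peak on either.

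Among 31 regulators of smooth muscle identity, Myocd and Mkl2 had lower sites with a FLAG peak. They made up 6.45% of the list, against 2.20% of all named genes and 11.1% of housekeeping genes. At Myocd the site lay at -981 bp from a TSS (chr10:51779966-51780433), and the authors' deposited table gave 3.23 in Myocd-LSD1 against 6.82 in Myocd-LSD1NF cells, a difference of -3.58 (FDR 4.00e-18). A control peak covered it and no Myocd-LSD1 peak did, and the FLAG peak on it had a fold of 4.89. Another 3 Myocd sites were lower without a FLAG peak, at -5.50, -3.92 and -3.68 per the authors' deposited table, so the FLAG-overlapping site was the least changed of the 4. Mkl2 encodes a myocardin-related transcription factor. Its site on the TSS (chr10:1245081-1246190) stood at 6.46 in Myocd-LSD1 against 7.16 in Myocd-LSD1NF cells and its intronic site at 4.46 in Myocd-LSD1 against 5.62 in Myocd-LSD1NF cells, differences of -0.70 (FDR 0.0442) and -1.16 (FDR 0.0182) per the authors' deposited table.

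In TGF-beta signalling, 3 of 28 genes carried 7 of the sites: Smad3, which transduces the signal, and the inhibitory SMADs Smad6 and Smad7. This share of genes, 10.7%, stood beside 2.20% of all named genes and 11.1% of housekeeping genes. Shares of lists here and below were not adjusted for how many peaks the genes hold. Smad3, Smad6 and Tns1 were the only genes with 3 such sites, 17 genes had 2 and 451 had 1, of 471 genes named in all. On chromosome 8, 5 sites in a row in the table, from chr8:68623305 to chr8:68913526 (290 kb), were lower and had a FLAG peak. The 3 assigned to Smad3 differed by -0.88, -1.45 and -2.49 and the next 2, assigned to Smad6, by -0.82 and -1.57 per the authors' deposited table. All lay 11332 bp or more from the TSS they were assigned to, and an intron in the annotation may belong to another transcript. Directly after them, Smad6 had 2 higher sites, at 1.14 with a FLAG peak and 2.13 without, and a further lower site with a FLAG peak at -1.85 per the authors' deposited table. Smad7 had a site at 5.35 in Myocd-LSD1 against 6.44 in Myocd-LSD1NF cells, a difference of -1.09 (FDR 0.00790) per the authors' deposited table. In the Notch list, 1 of 15 genes (6.67%) had a site, the coactivator Maml2, at -0.99 (FDR 0.0305) per the authors' deposited table. Without a FLAG peak, Maml2 had 1 further lower site, at -1.24 (FDR 0.0112), and 2 higher sites, at 1.29 (FDR 1.75e-04) and 1.58 (FDR 0.0120), per the authors' deposited table.

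Focal adhesion genes carried sites at 3 of 27 genes, Tns1, Pxn and Parva. Their share of 11.1% equalled that of housekeeping genes, against 2.20% of all named genes. Tns1, tensin, which links integrins to actin, had 7 lower sites over 48.6 kb in an intron, and 3 of them overlapped a FLAG peak. Those 3 differed by -0.66, -0.85 and -0.88, and the 4 without a FLAG peak by -0.99 to -1.97 per the authors' deposited table. Closer to the Tns1 start, 3 sites were higher by 1.45, 0.97 and 1.87, the first 2 with a FLAG peak, per the authors' deposited table. Pxn, paxillin, had a site at 6.31 in Myocd-LSD1 against 7.69 in Myocd-LSD1NF cells (difference -1.38, FDR 2.12e-06), and Parva, parvin, at 3.02 in Myocd-LSD1 against 4.66 in Myocd-LSD1NF cells (-1.64, FDR 0.0356), per the authors' deposited table. Parva also had a lower site without a FLAG peak, at -2.29 (FDR 0.0174) per the authors' deposited table.

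Matrix genes carried sites at 5 of 36 genes, of which 3 serve elastic fibres. The share of 13.9% stood beside 2.20% of all named genes and 11.1% of housekeeping genes. Fbln5, fibulin, which assists elastic fibre assembly, had an intronic site (chr6:125699153-125699635) at 1.13 in Myocd-LSD1 against 4.72 in Myocd-LSD1NF cells, a difference of -3.59 (FDR 6.88e-05) per the authors' deposited table. Eln, elastin, had a site at -355 bp from its TSS, with 5.30 in Myocd-LSD1 against 6.35 in Myocd-LSD1NF cells (-1.05, FDR 0.0264) per the authors' deposited table. The rule for named genes left Eln out, and it was named after its values were seen. Loxl1, a lysyl oxidase that crosslinks elastin, differed by -1.09 (FDR 0.0320) per the authors' deposited table. The basement membrane collagens Col4a2 and Col18a1 differed by -1.54 (FDR 0.0139) and -1.29 (FDR 0.0251) per the authors' deposited table. Each of Fbln5, Eln and Loxl1 also had a lower site without a FLAG peak, and those differed by more than the FLAG-overlapping one, at -4.66 for Fbln5, -2.01 and -2.51 for Eln and -2.28 for Loxl1 per the authors' deposited table. A higher site without a FLAG peak lay at Fbln5 (1.80, FDR 0.0153), and a higher one with a FLAG peak on the TSS of Col18a1 (0.84, FDR 0.0165), per the authors' deposited table.

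Growth factor genes had sites at 4 of 23 genes (17.4%), against 2.20% of all named genes and 11.1% of housekeeping genes. The ligands Igf1, Fgf2 and Pdgfa differed by -1.70 (FDR 0.0129), -1.52 (FDR 9.33e-04) and -1.38 (FDR 0.0315), and the receptor Fgfr3 by -0.61 (FDR 0.0347), per the authors' deposited table. Fgfr3 also had 3 lower sites, between -2.02 and -0.92, and 1 higher site, at 3.21, all without a FLAG peak, per the authors' deposited table. Of 21 osteogenic and chondrogenic genes, Runx2, the regulator that starts bone formation, had a site at 2.92 in Myocd-LSD1 against 4.72 in Myocd-LSD1NF cells, and its relative Runx1 at 5.21 in Myocd-LSD1 against 6.13 in Myocd-LSD1NF cells, differences of -1.80 (FDR 0.0239) and -0.92 (FDR 0.0427) per the authors' deposited table. The list stands for another lineage, and these sites lay at 17940 and -10596 bp from the assigned start. Most sites of both genes were higher in Myocd-LSD1 cells. Runx2 had 3 higher sites, none with a FLAG peak, at 1.32 (55 bp from the TSS), 4.72 and 3.61, and Runx1 had 3 with a FLAG peak, at 1.14, 1.45 and 5.14, per the authors' deposited table. At the sites with 4.72, 3.61 and 5.14, Myocd-LSD1NF cells stood at the lowest value of their column, -0.11, per the authors' deposited table. Of 30 vascular channel and receptor genes only Kcnd3, a voltage-gated potassium channel, had a site (-1.09, FDR 0.00689), and of 28 cell cycle genes only Cdk6, a cyclin D dependent kinase (-2.30, FDR 0.00243), per the authors' deposited table. Kcnd3 had 3 further lower sites without a FLAG peak, at -3.06 on its TSS, -2.74 and -6.35, the last at the lowest value of the Myocd-LSD1 column, per the authors' deposited table. Among 18 housekeeping genes, Ppib and Actb had sites, at -1.55 (FDR 0.00963) and -1.12 (FDR 0.0115) per the authors' deposited table, a share of 11.1% that was close to the 12.8% of contractile genes. None of the 16 immediate early targets of serum response factor, the 26 genes of the LSD1 complex and other H3K4 enzymes, or the 14 endothelial, 13 fibroblast, 7 leukocyte and 11 striated muscle genes had one. Since 2.20% of all 21397 named genes had a site, lists this small may well hold none, and these absences do not set them apart. The shares of channel and receptor genes (3.33%) and of cell cycle genes (3.57%) were also near 2.20%.

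Away from the lowest value, the largest differences with a gene symbol were at Rnft2, Fbln5, Myocd, Inpp5a, Tcerg1l, Pgm1, Iqca1, Esrrg, Pus10 and Atg13. Rnft2 encodes a transmembrane RING finger protein. Its intronic site (chr12:43959486-43960363) had 2.59 in Myocd-LSD1 against 6.56 in Myocd-LSD1NF cells, a difference of -3.97 (FDR 1.17e-14) per the authors' deposited table. Inpp5a encodes a phosphatase of inositol phosphates, and its intronic site (chr1:211815859-211816549) had 3.01 in Myocd-LSD1 against 6.58 in Myocd-LSD1NF cells, a difference of -3.57 (FDR 7.77e-04) per the authors' deposited table. The orphan nuclear receptor gene Esrrg differed by -3.20 (FDR 5.84e-04), Pgm1, phosphoglucomutase, by -3.33 (FDR 9.29e-05) and the autophagy gene Atg13 by -3.06 (FDR 0.0111) per the authors' deposited table. Tcerg1l, Iqca1 and Pus10 differed by -3.42, -3.24 and -3.11 per the authors' deposited table. Only Inpp5a of these 10 had a Myocd-LSD1 peak, and 7 of the 10 were covered by a control peak, the exceptions being Pgm1, Iqca1 and Atg13. Their FLAG peaks had folds between 3.46 and 5.36, against a median of 4.89 over the 494 sites.

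The highest FLAG peaks lay on other sites than the largest differences. With a gene symbol, they included those at Inpp5a (fold 12.5), Rps6ka2 (11.7), C1qtnf1 (11.1), Rps6ka1 (9.72), Lmntd1 (9.69), Tomm5 (9.66), Galnt2 (9.45), Prr15 (8.21) and Sirpa (8.16). The Inpp5a site here was the one on its TSS (chr1:211731841-211734157), at 7.71 in Myocd-LSD1 against 9.25 in Myocd-LSD1NF cells, a difference of -1.54 (FDR 4.91e-15) per the authors' deposited table. Rps6ka2 and Rps6ka1, kinases that act downstream of ERK, had sites at 7.62 and 6.38 in Myocd-LSD1 against 8.36 and 7.45 in Myocd-LSD1NF cells, differences of -0.75 (FDR 6.41e-04) and -1.06 (FDR 0.00117) per the authors' deposited table. Galnt2, which starts O-linked glycosylation, differed by -0.57, and Tomm5, a subunit of the mitochondrial import pore, by -1.01 per the authors' deposited table. The differences at C1qtnf1, Lmntd1, Prr15 and Sirpa were -0.96, -0.96, -1.98 and -1.29 per the authors' deposited table. Each of the sites just named was covered by a Myocd-LSD1 and by a control peak. One unnamed locus, LOC108348302, had a FLAG fold of 14.0, the highest of the set, and differed by -0.65 per the authors' deposited table; it was chosen after its value was seen.

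Across the 494 sites, a higher FLAG fold went with a smaller difference. By quartile of the FLAG fold, low to high, the median difference was -1.71, -1.46, -1.25 and -1.08, and the median Myocd-LSD1NF concentration 5.63, 5.97, 6.19 and 6.46, per the authors' deposited table. Over the sites, Spearman's correlation between the difference and the FLAG fold was 0.29 (Pearson's r 0.26, n = 494), and between the difference and the Myocd-LSD1NF concentration of the authors' deposited table it was 0.71 (r 0.61). The FLAG fold and the Myocd-LSD1 concentration had a Spearman correlation of 0.30 (r 0.32). Sites share their libraries, the difference contains both concentrations, and a site with few reads needs a larger difference to pass the FDR, so these values are descriptions and the part of signal level in them was not tested.

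FLAG summits lay close to H3K4me2 summits, which the choice of sites largely brings about, since the FLAG peak had to overlap the site. The same holds for the higher sites with a FLAG peak given below. The FLAG summit was a median of 94.0 bp from the Myocd-LSD1NF H3K4me2 summit (quartiles 35.0 and 185), and 51.6% (47.1 to 56.1) of sites had the summits within 100 bp and 96.2% within 500 bp. The FLAG peak was a median of 325 bp wide and the site 842 bp, and at 88.9% of sites (85.8 to 91.5) the FLAG peak lay wholly inside the site. Higher sites with a FLAG peak had FLAG and Myocd-LSD1 H3K4me2 summits a median of 96.0 bp apart, with 51.0% (47.8 to 54.2) within 100 bp. Fold enrichment of FLAG had a median of 4.89 (quartiles 4.30 and 5.82, range 3.18 to 14.0) at the 494 sites, against 5.28 at higher sites with a FLAG peak and 5.14 in the whole FLAG list. The 494 sites held 505 of the 26480 FLAG peaks, and 11 sites had 2 FLAG peaks.

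**Figure D2:**
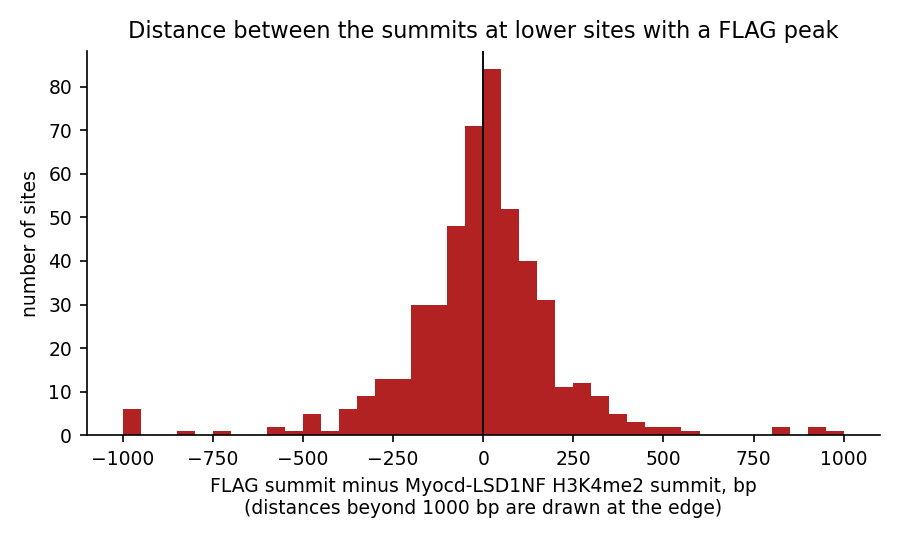
Number of sites (vertical axis) by the distance in bp from the Myocd-LSD1NF H3K4me2 summit to the FLAG summit (horizontal axis, bins of 50 bp) at the 494 lower sites with a FLAG peak. The distances gather around 0, with a median size of 94.0 bp. The FLAG peak had to overlap the site, which limits these distances.

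Nearly all the sites were also marked in the control line, which the choice of sites did not use. A control H3K4me2 peak covered 476 of the 494 sites, 96.4% (94.3 to 97.8), against 80.1% (78.1 to 81.9) of lower sites without a FLAG peak, 78.3% (75.6 to 80.8) of higher sites with one and 75.3% of all sites in the table. A Myocd-LSD1 peak was still called on 432 of the sites, 87.4% (84.2 to 90.2), against 40.7% (38.3 to 43.0) of lower sites without a FLAG peak. Myocd-LSD1NF peaks covered all 494. Both a Myocd-LSD1 and a control peak were present at 426 sites, a control peak alone at 50, a Myocd-LSD1 peak alone at 6, and neither at 12. The 50 sites marked in control and Myocd-LSD1NF but not in Myocd-LSD1 cells included Myocd, Myl9, Fbln5 and Rnft2. In the authors' deposited table the 62 sites without a Myocd-LSD1 peak had a median difference of -2.42 and the 432 with one -1.25, while the 18 without a control peak had -2.25. No control concentration is in the table, so which line departed from the control cannot be told apart from these values.

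**Figure D3:**
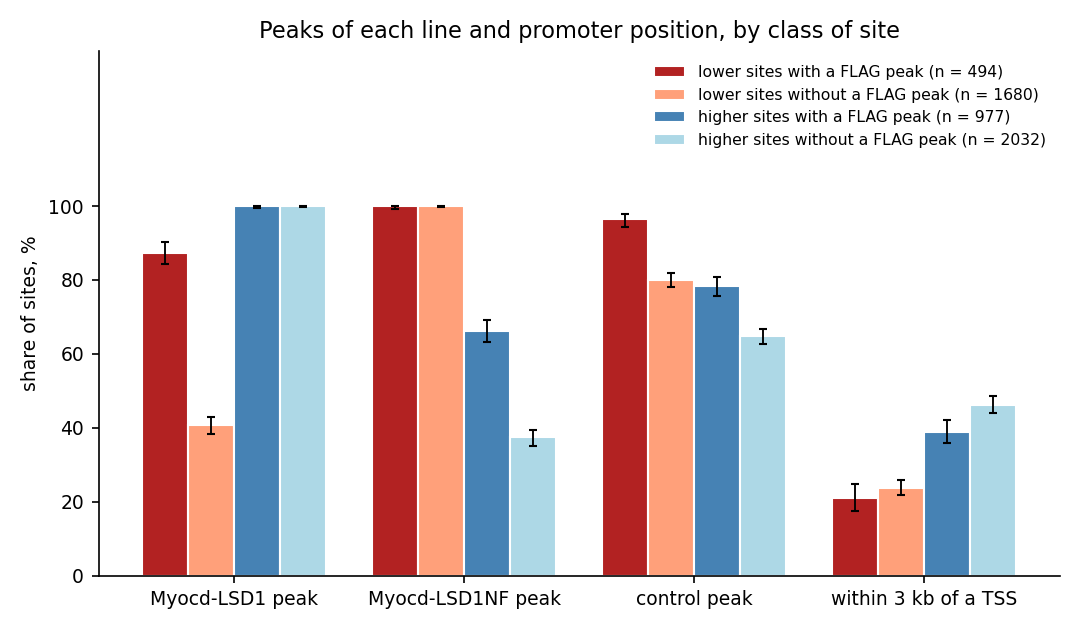
Share of sites, in percent, covered by a peak of the Myocd-LSD1, Myocd-LSD1NF or control H3K4me2 list, or within 3 kb of a TSS, for lower and higher sites with and without a FLAG peak; bars are shares and error bars exact 95% binomial intervals. Lower sites with a FLAG peak have the highest share with a control peak, 96.4%. Their share near a TSS, 20.9%, is close to the 23.8% of lower sites without a FLAG peak, and both are below the higher sites.

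The level of a site went with both FLAG overlap and peak calls. The classes were therefore also set side by side in quartiles of the mean level of both lines. FLAG was mapped in Myocd-LSD1 cells only. At the same mean level, a lower site has by rule less signal in those cells than a higher site. Lower and higher sites of a quartile are thus not at like levels there, and the highest quartile spans 5.79 to 9.80. In quartiles of the mean concentration of all sites in the authors' deposited table, low to high, FLAG peaks covered 5.79%, 15.8%, 27.0% and 47.4% of lower sites, against 15.5%, 27.6%, 34.2% and 49.6% of higher sites. Over all levels the shares were 22.7% (21.0 to 24.5) of lower and 32.5% (30.8 to 34.2) of higher sites. Both were below the 40.8% of all Myocd-LSD1NF peaks and the 42.0% of all Myocd-LSD1 peaks. The lists were not matched to the sites in level or position. Among Myocd-LSD1NF peaks, the FLAG share was 51.7% at promoters and 32.7% elsewhere, and the lower sites lay less often at promoters than that list. The 22.7% of lower sites was below both of these shares, and the part of position was not tested. The gap between lower and higher sites was small in the quartile of the strongest sites. Control peaks covered 78.1%, 91.7%, 98.7% and 99.5% of lower sites with a FLAG peak by quartile, low to high, against 59.1%, 83.8%, 91.9% and 97.5% of lower sites without. Myocd-LSD1 peaks covered 15.6%, 75.0%, 93.4% and 99.5% of them, against 2.69%, 35.7%, 67.4% and 88.3% of lower sites without a FLAG peak. The median difference was -2.48, -1.85, -1.37 and -0.94 at sites with a FLAG peak, against -3.19, -2.34, -1.69 and -1.17 at lower sites without one, per the authors' deposited table. The FLAG-overlapping sites were less reduced and more often still called in each quartile, and none of these differences was tested. FLAG peaks and Myocd-LSD1 peaks came from the same line. Quartiles of the mean of both lines do not match sites in their Myocd-LSD1 level, so these classes are not at like levels there either. In the lowest quartile only 32 lower sites had a FLAG peak, and the interval of their 15.6% was 5.28 to 32.8.

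**Figure D4:**
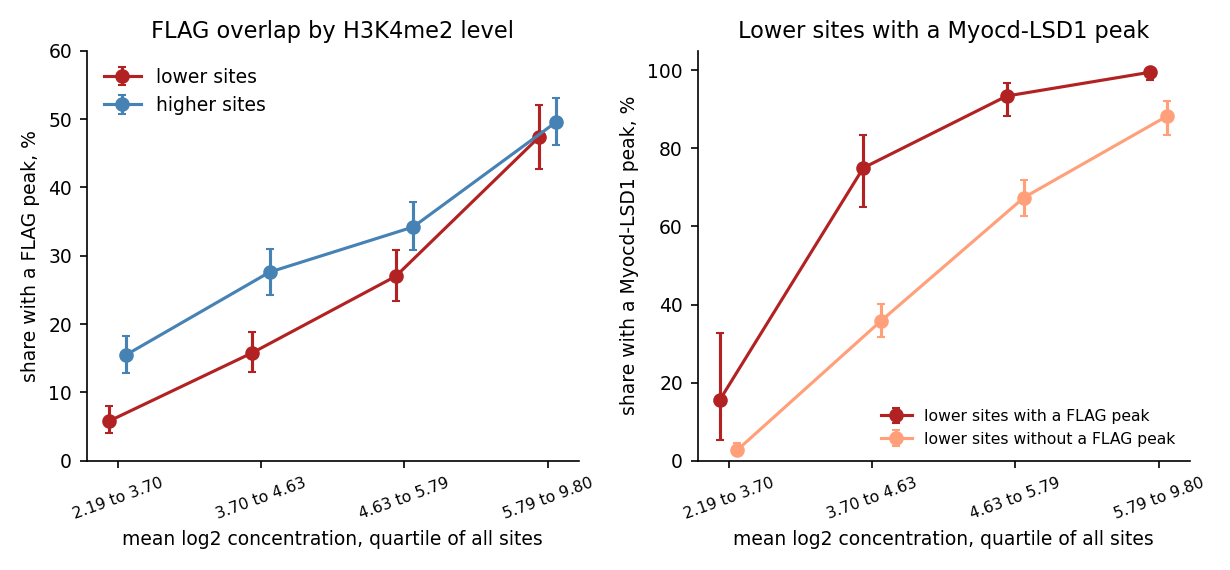
Left, share of lower and of higher sites with a FLAG peak; right, share of lower sites with and without a FLAG peak that have a Myocd-LSD1 H3K4me2 peak, both in percent by quartile of the mean log2 concentration of the authors' deposited table, with exact 95% binomial intervals. FLAG overlap of lower sites goes up with level, to 47.4% in the highest quartile.

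The sites lay mostly away from promoters. Introns held 202 of them (40.9%), distal intergenic sequence 149 (30.2%) and promoters, within 3 kb of a TSS, 103 (20.9%, 17.4 to 24.7). Exons held 27, regions downstream of genes 8 and annotated 3′ untranslated ends 5. Promoters held 23.8% (21.7 to 25.9) of lower sites without a FLAG peak, 38.8% (35.8 to 42.0) of higher sites with one, 40.1% of the whole FLAG list and 42.5% of the whole Myocd-LSD1NF list. Median distance to the TSS was 15120 bp (quartiles 4382 and 34578). Promoter sites were stronger and less reduced, with medians of 5.91 in Myocd-LSD1 against 6.93 in Myocd-LSD1NF cells and a difference of -1.06 by the authors' deposited table. Sites beyond 3 kb had 4.38 in Myocd-LSD1 against 5.85 in Myocd-LSD1NF cells and a difference of -1.42 per the authors' deposited table. The 53 sites on a TSS differed by -0.56 to -2.86 per the authors' deposited table. The 2 ends of that range, named after their values were seen, were S1pr3, a sphingosine phosphate receptor (7.09 in Myocd-LSD1 against 7.64 in Myocd-LSD1NF cells), and Myo7a, an unconventional myosin (6.43 in Myocd-LSD1 against 9.30 in Myocd-LSD1NF cells, FDR 0.0325), per the authors' deposited table.

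Some of the sites stood close together. The median gap between neighbouring ones was 1750 kb, and 27 of 472 neighbouring pairs lay within 50 kb. Gaps were not counted for other classes of site, so whether these sites were closer together than others was not tested. Chromosome 1 held 77 of the sites, 15.6%, against 11.7% of all Myocd-LSD1NF peaks. The stretch of 1 Mb with the most of them, chosen after the values were seen, was chr1:210929108-211834290 (905 kb), with 9 lower sites with a FLAG peak and 8 without. All 17 of its sites in the authors' deposited table were lower, by a median of -1.92. The 9 were assigned to Tcerg1l, Bnip3, Lrrc27 (2 sites), Pwwp2b, Inpp5a (2 sites) and 2 unnamed loci. Bnip3, a mitochondrial protein of cell death and mitophagy, had its site on the TSS at 7.94 in Myocd-LSD1 against 8.77 in Myocd-LSD1NF cells (difference -0.83, FDR 0.00442) per the authors' deposited table. Lrrc27 and Pwwp2b had TSS sites at 7.52 and 8.24 in Myocd-LSD1 against 8.86 and 9.55 in Myocd-LSD1NF cells (-1.34, FDR 9.80e-11, and -1.31, FDR 1.12e-07) per the authors' deposited table. The stretch held 21 Myocd-LSD1, 42 Myocd-LSD1NF and 30 control H3K4me2 peaks and 16 FLAG peaks, and 25 of the Myocd-LSD1NF peaks had no site in the table. The next site, 482 kb on, was higher by 3.33 per the authors' deposited table.

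**Figure D5:**
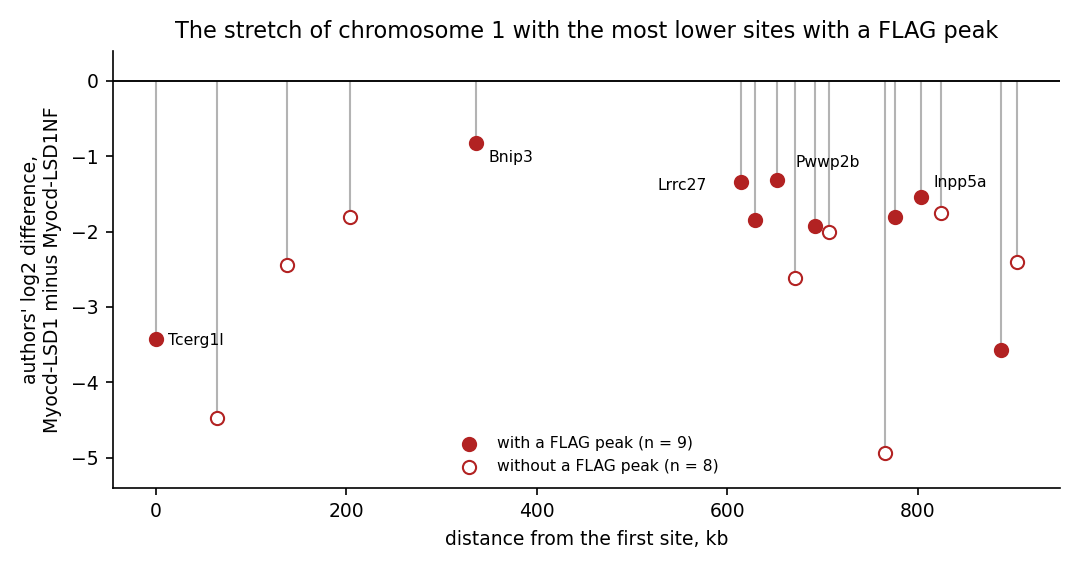
Log2 difference, Myocd-LSD1 minus Myocd-LSD1NF, from the authors' deposited table (vertical axis) at the 17 sites of the chromosome 1 stretch by distance in kb from the first site (horizontal axis); filled points overlap a FLAG peak and open points do not. All 17 lie below 0, and the 2 lowest, -4.47 and -4.94, have no FLAG peak.

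An FDR of at most 0.01 would leave 245 of the 494 sites, so about as many lay between that value and the limit. The 3 sites closest to the FDR limit were at Adamts2, a procollagen protease (-0.67, FDR 0.0499), LOC108349238 (-1.51, FDR 0.0495) and Mreg (-0.67, FDR 0.0493), per the authors' deposited table. Just outside, 3 lower sites missed a FLAG peak by 15 bp at Cmss1 (-2.21), 20 bp at Actn1, alpha actinin (-1.73), and 84 bp at LOC103692122 (-1.99), per the authors' deposited table. Lower sites without overlap numbered 3 within 100 bp of a FLAG peak, 18 within 500 bp and 39 within 1000 bp. The overlap itself had a median of 320 bp (quartiles 234 and 442) and was 9 bp at its smallest. Of the 471 genes named for the sites, 111 (23.6%) also had a lower site without a FLAG peak and 57 (12.1%) a higher site. The same shares over all named genes were not counted, so neither value is shown to be particular to these genes.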

How the data were processed

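H3K4me2 was profiled by CUT&Tag in 3 lines and FLAG in 1, with 13 samples in 4 groups, per the labels. Bowtie2, deepTools, MACS2, ChIPseeker, DiffBind and rn6 are named, with no version, per the submitters' processing notes. How reads were shifted, deduplicated and scaled, which test DiffBind ran, and whether replicates were pooled before peaks were called is not given in the sources used here. Per the file headers, each deposited peak list gives a fold enrichment ratio, a score (10 times the -log10 q-value), and the -log10 of both the p-value and the q-value. Per the file headers, the authors' DiffBind table gives log2 concentrations of both lines, a log2 fold, a p-value and an FDR. The fold equals Myocd-LSD1 minus Myocd-LSD1NF within 0.01. Site positions are rn6, counted from 1. Depth per sample is unknown.

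Overlaps were counted at 1 bp or more, genes and positions came from the Myocd-LSD1NF peak on a lower site and the Myocd-LSD1 peak on a higher one, and promoters are within 3 kb of a TSS. The number of sites tested was estimated from p-values, ranks and FDRs. Tested on 2000 simulated sites, the counting of overlaps found 100.0% of those planted. Shares carry exact binomial intervals. No test between samples could be made, since no values per sample were used. Of the 471 gene names, 145 are placeholders and 2 were turned to dates by a spreadsheet; these were not named by symbol. In 18 gene lists with 444 entries, 407 entries matched a gene name in the peak lists.

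Members and lists were chosen with earlier results of these data known. The rule for named genes took the 10 largest differences off the lowest values and the 10 highest FLAG folds with a symbol, genes with 3 or more sites, contractile and regulator genes with a site, up to 4 genes of any other list, the 3 sites nearest each limit, and, as checks, Kdm1a, Myocd, Cnn1, Tagln, Myh11 and Acta2. Some of the results this rule took are not reported here. Alternatives changed the FLAG overlap, FLAG strength, FDR, size of difference, promoter distance and gene assignment. Scripts ran under Python 3.11.15 with pandas 2.3.3, numpy 2.4.6, matplotlib 3.10.9 and scipy 1.17.1.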

Additional observations from a re-analysis of the deposited data

How the results depend on the processing

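Of 46 recomputed values, 25 stayed within the interval of the value reported, or within 1.5 times a count, and 21 moved beyond it. Direction was not checked, since counts and shares have none and the rule makes every site lower. FLAG peaks with the strongest 50% of q-values left 212 of the 494 sites, 9.75% of lower and 16.9% of higher sites, with a Myocd-LSD1 peak on 95.8% and a median difference of -1.10 per the authors' deposited table. An FDR of at most 0.01 left 245 sites, 18.9% of lower sites, 25.7% at promoters and a median of -1.52 per the authors' deposited table. A difference of at least 1 left a FLAG peak on 18.6% of lower and 29.6% of higher sites, a Myocd-LSD1 peak on 82.9% and promoters at 16.5%. Leaving out sites at a lowest value gave 25.3% and 35.4% of lower and higher sites with a FLAG peak, and a FLAG peak within 1 kb gave 36.8% of higher sites. With the strongest 50% of H3K4me2 peaks, control peaks covered 67.2% and Myocd-LSD1 peaks 42.9% of the sites. Promoters within 1 kb held 15.2%. Sites within 3 kb of a TSS named 103 genes and 6 of the 29 list genes. In each setting of FLAG overlap, FLAG strength, FDR, difference and lowest values, lower sites had a smaller share with a FLAG peak than higher sites. FLAG was mapped in Myocd-LSD1 cells only, where lower sites have less signal by rule, and no setting changed this. In the quartile of the strongest sites the shares were 47.4% of lower and 49.6% of higher sites. Without the chromosome 1 stretch, an alternative chosen after seeing the data, 485 sites remained, with a median difference of -1.34 per the authors' deposited table. Of the 56 named sites, 23 stayed with the stronger FLAG peaks, 29 with the stricter FDR and 41 with the larger difference.

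No paired analysis was possible because the files hold only group means and a single peak list per group; for the same reason nothing was recomputed without single samples. Depth per sample is unknown, the lists were not equalised for depth, and no FLAG profile of untagged cells was used here.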
